A study of Homo sapiens with 8 samples.

Results

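The genes described here are 8 costimulatory and checkpoint genes of antigen-presenting and myeloid cells: CD80, CD86, CD40, ICOSLG, CD274, PDCD1LG2, LGALS9 and HAVCR2. They were taken by symbol from the 26364 genes of the expression table, and each symbol had 1 entry. RNA was sequenced from MV4-11, an acute myeloid leukemia (AML) cell line that carries FLT3-ITD and MLL-AF4, so all groups share these alleles and a single line. Control cells received the vehicle DMSO. The other groups received tranylcypromine (TCP), an inhibitor of the histone demethylase LSD1, at 5 µM, palbociclib, an inhibitor of the cell cycle kinases CDK4 and CDK6, at 0.5 µM, or both drugs at these doses (combination). Each group had 2 libraries from day 4. The labels give 4 days of treatment, while the study's methods describe a CDK6 inhibitor given by itself for 1 day, with the LSD1 inhibitor added for the next 3, so how long TCP was present in these libraries is unclear. Nothing in the labels says whether replicates were separate cultures, so p-values measure the spread between these libraries, which may be technical.

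A T cell that meets antigen also reads further signals on the presenting cell. CD80 and CD86 bind CD28, which promotes activation, and CTLA-4, which restrains it, while ICOSLG binds ICOS. CD40 is a receptor on the presenting cell that is engaged by CD40 ligand on helper T cells. CD274 (PD-L1) and PDCD1LG2 (PD-L2) bind the inhibitory receptor PD-1, and LGALS9 (galectin-9) is a ligand of the inhibitory receptor TIM-3, the product of HAVCR2. In AML, TIM-3 is known as a surface marker of leukemic stem cells, and CD86 serves as a marker of monocytic maturation.

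Levels are TPM, the number of transcripts of a gene per 1000000 transcripts, which corrects for gene length and library size. Library depth is unknown because the table holds no counts. Each library had 13320 to 13640 genes at 1 TPM or more, and replicates correlated at 0.983 to 0.991 across genes. The share of TPM taken by the 10 most abundant genes was 9.12 to 9.67% without palbociclib and 14.0 to 15.8% with it. The median log2 fold change of all genes tested was -0.16 for palbociclib and -0.22 for the combination against control, and changes are to be read relative to these shifts. How many of all genes had libraries that did not overlap between groups was not counted.

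Promoter sequence is shown for CD86 and CD274, the CD28 ligand and the PD-1 ligand whose transcripts rose in the combination. RefSeq windows were found for 5 of the 8 genes, and CD40, PDCD1LG2 and HAVCR2 had none. The 250 bases before each start were located by exact match in GRCh37. Capitals mark matches on either strand to GAGGAA, the core bound by the myeloid factor SPI1, in CD86 and to GAAANNGAAA, the form bound by interferon regulatory factors, in CD274.
CD86, first of its 2 starts, chr3:121773959-121774208, plus strand: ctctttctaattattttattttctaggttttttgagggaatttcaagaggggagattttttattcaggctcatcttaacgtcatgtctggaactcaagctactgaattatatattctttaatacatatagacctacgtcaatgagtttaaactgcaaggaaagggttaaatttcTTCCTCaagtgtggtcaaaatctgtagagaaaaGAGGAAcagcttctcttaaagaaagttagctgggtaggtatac
CD274, chr9:5450292-5450541, plus strand: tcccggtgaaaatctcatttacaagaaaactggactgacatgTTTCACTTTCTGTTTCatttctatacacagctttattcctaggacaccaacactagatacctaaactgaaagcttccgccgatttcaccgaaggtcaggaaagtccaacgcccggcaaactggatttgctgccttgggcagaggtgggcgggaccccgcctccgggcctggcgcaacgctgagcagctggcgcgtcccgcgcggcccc
The CD86 window held 2 GAGGAA matches, which began 76 and 43 bases before the start. The CD274 window held 2 overlapping GAAANNGAAA matches, which began 208 and 202 bases before the start. Of all 34943 RefSeq windows of this length, 23.6% held GAGGAA and 3.02% held GAAANNGAAA. GGGNNNNNCC, a form bound by NF-kappa-B, was in 54.4% of all windows, with 3 matches in CD274, 3 at the other CD86 start, and 1 each in ICOSLG and LGALS9. The CD274 matches that began 63 and 62 bases before the start overlap. So do those that began 82 and 81 bases before the other CD86 start. The CD80 window held none of these motifs. A match describes the letters only.

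On the log2(TPM + 1) scale CD86 had the largest fold change of the 7 described genes that were tested, between the combination and palbociclib. Its level was highest in the combination. It lies on chromosome 3 at 121774209 to 121839986 (GRCh37, plus strand) and shares no exonic base with another gene. Its TPM was 3.50 and 2.62 in the control libraries, 14.8 and 7.0 with TCP, 1.80 and 1.78 with palbociclib, and 24.0 and 18.4 with the combination. The libraries of the 4 groups did not overlap, in the order palbociclib, control, TCP and combination. The TCP replicates differed from each other more than those of any other group, 10.9 ± 5.54 TPM (SD, n = 2). In bulk RNA, fewer cells that express a gene and less RNA per cell cannot be told apart.

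The combination raised CD86 above control by 2.45 on the log2(TPM + 1) scale, with a 95% interval of 1.71 to 3.18 and an adjusted p of 0.000741 by limma with Benjamini-Hochberg adjustment. The ratio of mean TPM was 6.94. Genes were called at an adjusted p below 0.01 and a log2 fold change of 1 or more in either direction, the thresholds the study used for its differentially expressed genes. With TCP alone the log2 fold change was 1.48 (0.75 to 2.22), but its adjusted p of 0.153 did not pass. With palbociclib alone it was -0.53 (-1.27 to 0.20, adjusted p 0.200).

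The combination also exceeded palbociclib for CD86, by 2.98 on the log2(TPM + 1) scale (2.25 to 3.72, adjusted p 0.00706), and the ratio of means was 11.9. This log2 fold change was the 5th of the 65 genes called higher in the combination than with palbociclib. Leaving out any 1 of the 4 libraries compared left 1 of all genes called, so the rank rests on all 4. The call was lost, with the size retained, in 5 of 13 alternatives: without the filter on low values (adjusted p 0.0207) and when palbociclib replicate 1 or 2 or combination replicate 1 or 2 was left out (adjusted p 0.0488 to 0.0735). Against TCP the difference of 0.97 (0.23 to 1.70, adjusted p 0.0364) was not called. It reached 1.46 with an adjusted p of 0.00297 without TCP replicate 1, and fell to 0.48 without TCP replicate 2. The interaction of both drugs, by which their joint log2 change exceeds the single changes added up, was 1.5 (0.46 to 2.54, adjusted p 0.564) and was not called.

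CD80, the other ligand of CD28 and CTLA-4, lies on the same chromosome at 119243140 to 119278461 (minus strand) and stayed at or below 1.25 TPM. Control libraries had 0.441 and 0.347 TPM, TCP 1.25 and 0.538, palbociclib 0.448 and 0.111, and the combination 0.868 and 1.12. TCP and combination libraries were above both control libraries, and the groups TCP and combination overlapped, as did control and palbociclib. No comparison of CD80 was called. The log2 fold change of the combination against control was 0.51 (-0.09 to 1.12, adjusted p 0.129). Of its 3213 exonic bases 798 overlap TIMMDC1 on the opposite strand, and whether the authors counted by strand is not given in the sources used here.

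CD86 exceeded CD80 in every library, and the ratio of their TPM varied. It was 7.93 and 7.55 in control, 11.9 and 13.0 with TCP, 4.01 and 16.0 with palbociclib, and 27.7 and 16.4 with the combination. The combination libraries had the highest ratios, and the palbociclib ratios lay below and above those of control and TCP.

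**Figure D1:**
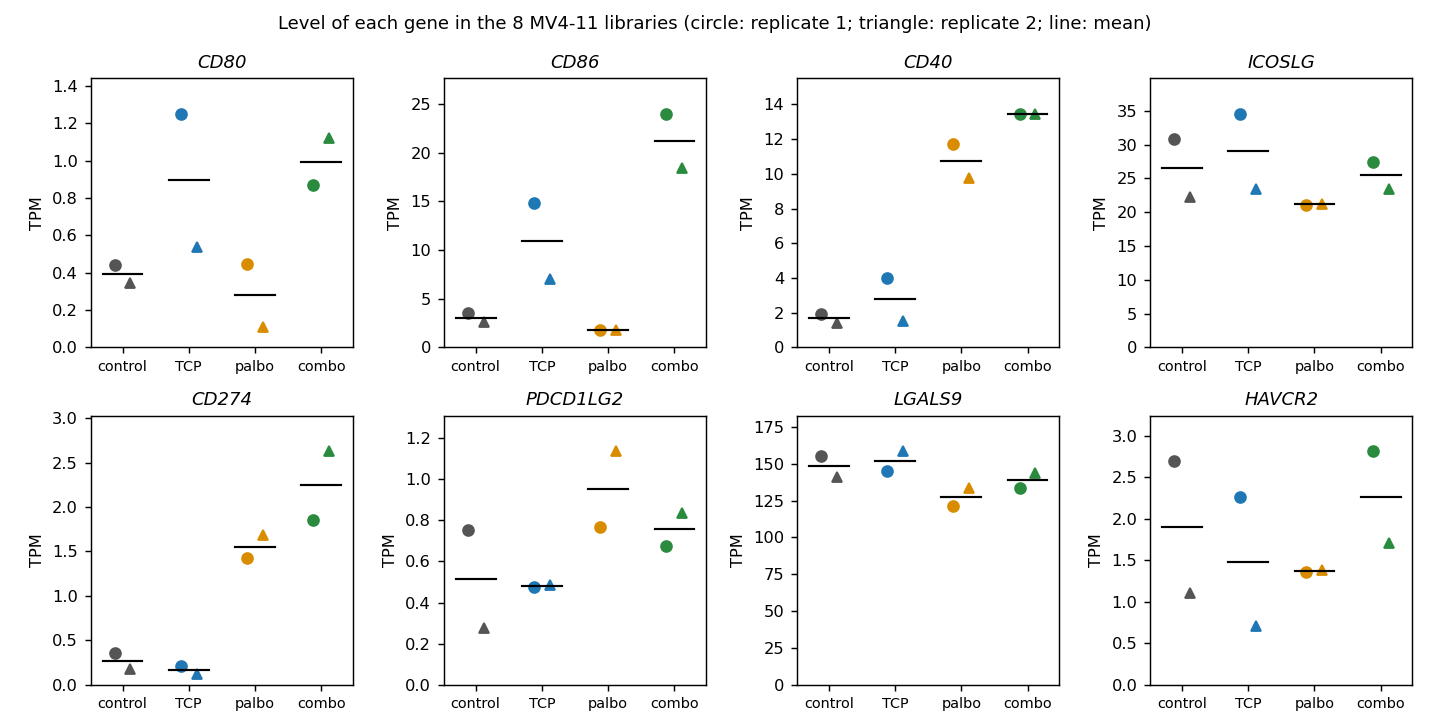
Level of each of the 8 genes in TPM (vertical axes, each from 0) in control, TCP, palbociclib (palbo) and combination (combo) libraries. Points are single libraries and lines are group means (n = 2). CD86 was highest in the combination (24.0 and 18.4 TPM), CD40 and CD274 were high with palbociclib and with the combination, and ICOSLG and LGALS9 overlapped between control and combination.

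ICOSLG was the second most abundant of the 8 genes and was not called in any comparison. Its libraries had 30.8 and 22.3 TPM in control, 34.6 and 23.4 with TCP, 21.1 and 21.3 with palbociclib, and 27.4 and 23.5 with the combination. Palbociclib libraries were below every other library, by little in the case of control replicate 2, and the remaining groups overlapped. The log2 fold change by limma was -0.30 with palbociclib (adjusted p 0.289) and -0.05 with the combination (-0.55 to 0.45, adjusted p 0.868). The palbociclib value was -0.14 with quantile normalization and with median ratio scaling. ICOSLG, on chromosome 21 at 45635265 to 45661329 (minus strand), shares 3237 of 19441 exonic bases with ENSG00000277117 on the same strand, so its reads could be split between both.

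CD40, the receptor through which helper T cells license presenting cells, rose with palbociclib whether or not TCP was present. It lies on chromosome 20 at 44746910 to 44758502. Its TPM was 1.93 and 1.41 in control, 3.99 and 1.54 with TCP, 11.7 and 9.75 with palbociclib, and 13.4 and 13.5 with the combination. Both groups that received palbociclib were above all libraries that did not, while control and TCP overlapped.

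Against control, CD40 rose by 2.14 on the log2(TPM + 1) scale with palbociclib (1.43 to 2.84, adjusted p 0.00162) and by 2.44 with the combination (1.74 to 3.15, adjusted p 0.000633). The ratios of mean TPM were 6.42 and 8.05. The palbociclib call was lost without control replicate 2 (adjusted p 0.0136), palbociclib replicate 1 (0.0126) or palbociclib replicate 2 (0.0112). Against TCP the combination was higher by 2.02 (1.32 to 2.73, adjusted p 0.00161), a call lost without combination replicate 1 (0.0120) or replicate 2 (0.0129).

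A difference in CD40 with and without TCP was not called. The difference between combination and palbociclib was 0.31 (-0.40 to 1.01, adjusted p 0.656), although the libraries did not overlap. TCP alone gave 0.42 (-0.29 to 1.13, adjusted p 0.763), which was -0.07 without TCP replicate 1 and 0.91 without TCP replicate 2. The interaction of -0.11 had an interval of -1.11 to 0.89 (adjusted p 1.0).

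CD274, which encodes PD-L1, was higher in the groups with palbociclib, as CD40 was, at a lower level. It lies on chromosome 9 at 5450503 to 5470566. Control libraries had 0.363 and 0.182 TPM, TCP 0.208 and 0.127, palbociclib 1.42 and 1.69, and the combination 1.86 and 2.63. CD274 reached 1 TPM only in the 4 libraries with palbociclib, so it passed the filter on low values through these groups. Control and TCP overlapped, and the combination was above palbociclib in both libraries.

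The log2 fold change of CD274 was 1.01 with palbociclib (0.53 to 1.48, adjusted p 0.00668) and 1.34 with the combination (0.87 to 1.82, adjusted p 0.00150). The ratios of mean TPM were 5.71 and 8.25. A pseudocount of 0.1 in place of 1 gave log2 values of 2.19 and 2.68, since the control level is far below 1 TPM. By size on the log2(TPM + 1) scale, CD274 ranked 632nd of 643 genes called higher with palbociclib and 535th of 830 with the combination. The palbociclib call was at the threshold and was lost on leaving out any of the 4 libraries compared (adjusted p 0.0226 to 0.0450). The combination call was lost without control replicate 2 (0.0121) or combination replicate 2 (0.0157).

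With TCP alone CD274 was not called (log2 fold change -0.12, interval -0.60 to 0.35, adjusted p 0.917). The combination exceeded TCP by 1.47 (0.99 to 1.94, adjusted p 0.00116), with a ratio of mean TPM of 13.4, a call lost without combination replicate 2 (0.0125), and exceeded palbociclib by 0.34 (-0.14 to 0.81, adjusted p 0.446). The interaction was 0.46 (-0.21 to 1.13, adjusted p 0.914).

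PDCD1LG2, the other PD-1 ligand, starts 39964 bases beyond the end of CD274 on the same chromosome. Its libraries had 0.754 and 0.277 TPM in control, 0.476 and 0.485 with TCP, 0.766 and 1.14 with palbociclib, and 0.675 and 0.838 with the combination. Both palbociclib libraries were above all control and TCP libraries, by little in the case of control replicate 1, and the combination overlapped with control and palbociclib. Only palbociclib replicate 2 reached 1 TPM. PDCD1LG2 was therefore not tested. With no filter its adjusted p was 0.165 for palbociclib and 0.373 for the combination against control.

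LGALS9 was the most abundant of the 8 genes in every library. It had 155 and 141 TPM in control, 145 and 159 with TCP, 121 and 133 with palbociclib, and 134 and 144 with the combination. Both palbociclib libraries were below both control libraries, and control overlapped with TCP and the combination. The log2 fold change by limma was -0.22 with palbociclib (adjusted p 0.0904) and -0.09 with the combination (-0.31 to 0.12, adjusted p 0.424). The palbociclib value lay near the median of all genes, -0.16. It was -0.10 with quantile normalization and -0.05 with median ratio scaling. Of the 3353 stretches of 50 bases in LGALS9 transcripts, 9.31% also occur in the copies LGALS9B and LGALS9C, so reads from these stretches could be assigned to either gene. How such reads were handled is not given in the sources used here.

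HAVCR2, which encodes the galectin-9 receptor TIM-3, was near 1 to 3 TPM. Control libraries had 2.70 and 1.10 TPM, TCP 2.26 and 0.707, palbociclib 1.35 and 1.38, and the combination 2.82 and 1.71. Each treated group overlapped with control. The log2 fold change of the combination was 0.21, with an interval of -0.71 to 1.12 (adjusted p 0.674), so a rise of 1 on this scale lies within the interval.

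**Figure D2:**
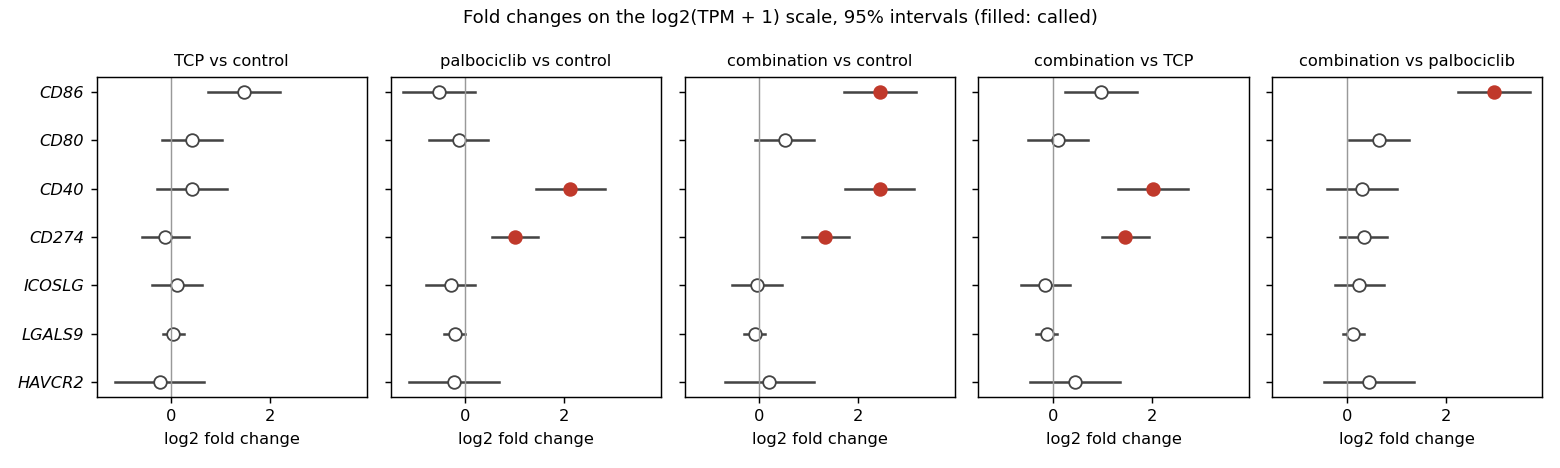
Log2 fold changes on the log2(TPM + 1) scale (horizontal axes) of the 7 genes tested, in 5 comparisons, with 95% intervals from limma. Filled points were called. CD86 was the only one of them called against palbociclib (2.98), and CD40 and CD274 were called with palbociclib against control and with the combination against control and against TCP.

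Of the 8 genes, 7 passed the filter of at least 1 TPM in at least 2 libraries. CD274 passed through the groups where it was high, and CD80 through TCP replicate 1 and combination replicate 2 alone. With palbociclib 2 of the 7 were called, both higher, where 9.1% of all 14151 genes tested were called in either direction, and the median log2 fold change was -0.22 for the 7 genes and -0.16 for all genes. With the combination 3 were called, all higher, against 13.7% of all genes, and the median log2 fold change was 0.51 for the 7 genes and -0.22 for all genes. Against TCP the combination had 2 called, both higher, against 12.2% of all genes.

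With TCP alone 0 of the 7 were called by limma and 1 had an unadjusted p below 0.05, where 0.0565% of all genes were called and 8.77% had an unadjusted p below 0.05. Between combination and palbociclib 1 was called against 0.502% of all genes. With a replicate block the shares of all genes called were 0.141% for TCP and 0.806% for combination against palbociclib, and the calls of the 7 genes were as without it. For the interaction 0 of the 7 were called and 1 had an unadjusted p below 0.05, and 0% of all genes were called, with 904 at an unadjusted p below 0.05. Centring on the median gene moved the share of calls that were higher from 42.8% to 61.9% for the combination and from 49.9% to 66.4% for palbociclib, and CD86, CD40 and CD274 kept their directions in these comparisons.

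Other ligands of the same families moved in both directions. Beside the counts of each family below, 9.1% of all genes tested were called with palbociclib and 13.7% with the combination. Of 11 further B7 and butyrophilin genes 8 were tested, and 2 rose and 1 fell with palbociclib and 1 rose and 1 fell with the combination. VSIR, listed as C10orf54, which encodes the inhibitory ligand VISTA, had 117 and 108 TPM in control, 236 and 257 with palbociclib, and 266 and 273 with the combination, which is 1.12 and 1.25 higher on the log2 scale (adjusted p 0.000124 and 4.7e-05). CD276, which encodes B7-H3, rose by 1.04 with palbociclib (adjusted p 0.00572), while its 0.68 with the combination was not called. The palbociclib call of CD276 was lost on leaving out any of the 4 libraries compared. NCR3LG1, which encodes the NKp30 ligand B7-H6, fell by 1.24 and 1.47 on the log2 scale.

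Among 10 TNF family ligands and CD40 relatives, 7 were tested and 1 was called, in the comparisons of palbociclib and of the combination with control. TNFSF13, which encodes the B cell factor APRIL, rose from 9.35 and 10.5 TPM in control to 39.2 and 43.1 with palbociclib and 46.9 and 51.9 with the combination. Its log2 fold changes were 1.95 and 2.21, close to those of CD40. Of 8 genes for adaptors of CD40 signalling 7 were tested, and 0 were called by limma in any comparison. With the combination 3 of the 7 had an unadjusted p below 0.05, as had 59.2% of all genes. BIRC3, named here after its values were seen, was called higher with the combination under quantile normalization (1.10) and median ratio scaling (1.17) and with palbociclib under median ratio scaling (1.01).

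The nectin, SLAM and CD2 families had 8 of 11 genes tested, with 2 called with palbociclib and 3 with the combination, all higher. SLAMF7, a self-binding receptor of leukocytes, had 1.16 and 1.17 TPM in control, 1.83 and 1.89 with TCP, 9.47 and 11.7 with palbociclib, and 26.9 and 24.7 with the combination. No groups overlapped, and the combination was above palbociclib by 1.21 (adjusted p 0.00789, and 0.0325 to 0.0859 on leaving out a library). CD84, of the same family, rose by 1.44 with palbociclib and 2.15 with the combination. CD48, named here after its values were seen, was the other gene called with the combination, at 1.07. Its call was kept on leaving out only 1 of the 4 libraries compared.

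Galectins and other TIM-3 ligands had 7 of 12 genes tested. With palbociclib 1 rose and 1 fell, and with the combination 2 rose and 1 fell. LGALS2, a small galectin, had 0.230 and 0.363 TPM in control, 1.45 and 1.78 with TCP, 2.14 and 1.16 with palbociclib, and 9.68 and 11.3 with the combination. Like CD86 it was called higher in the combination than with palbociclib, by 2.14 (adjusted p 0.00644), and this call too was lost on leaving out any library compared (0.0253 to 0.0725). The rise of LGALS2 with palbociclib (1.01) was at the threshold and was not called with quantile normalization (0.92). That call was kept on leaving out only 1 of the 4 libraries compared. LGALS3 rose by 1.69 with the combination, a call kept on leaving out 2 of the 4 libraries compared. With palbociclib LGALS3 was called by limma with a replicate block (1.07, adjusted p 0.00208) and not without it (adjusted p 0.0110). HMGB1, a chromatin protein that also binds TIM-3, fell by 1.19 with palbociclib and by 1.59 with the combination. In these 4 families 0 genes were called with TCP alone by limma, and 1, 2, 5 and 2 had an unadjusted p below 0.05 in the order given, where the share over all genes was 8.77%.

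**Figure D3:**
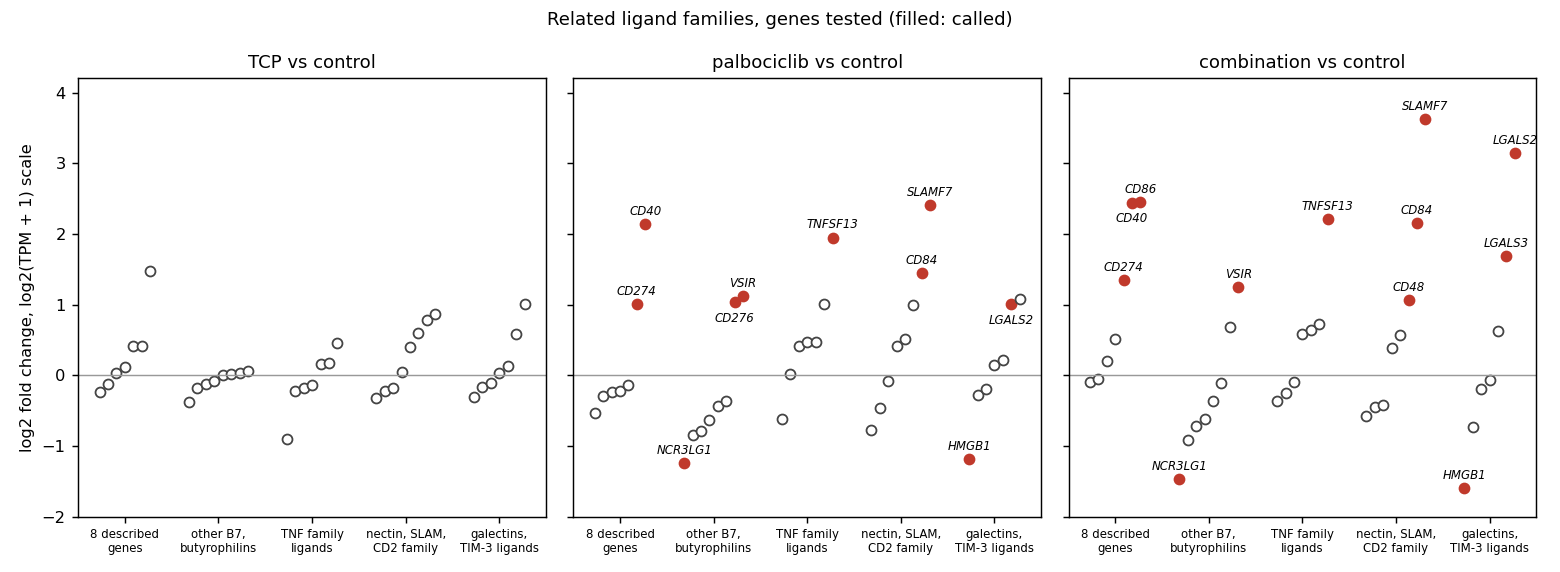
Log2 fold change on the log2(TPM + 1) scale (vertical axis) of every gene tested in 5 families (horizontal axis), for TCP, palbociclib and the combination against control. Each point is a gene, filled where called and then named. No gene was called with TCP, and SLAMF7 and LGALS2 had the largest rises with the combination, at 3.62 and 3.15.

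Of 10 genes known to control PD-L1, all tested, none was called higher and 1 was called lower with the values as deposited. Over all genes 9.1% were called with palbociclib and 13.7% with the combination. By limma 6 of the 10 had an unadjusted p below 0.05 with the combination, as had 59.2% of all genes. Their median log2 fold change there was 0.19, against -0.22 for all genes. With median ratio scaling IFNGR1, a receptor chain for interferon gamma named here after its values were seen, was called higher with the combination (1.06). The 1 called, IRF1, an interferon-induced activator of CD274, fell. IRF1 had 58.6 and 55.4 TPM in control, 58.1 and 56.2 with TCP, 29.4 and 26.6 with palbociclib, and 29.9 and 26.2 with the combination. Its log2 fold changes of -1.0 with palbociclib and with the combination (adjusted p 0.000397 and 0.000237) were at the threshold, and neither was called with quantile normalization (-0.86 and -0.80) or median ratio scaling (-0.84 and -0.78).

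Most T cell receptors for these ligands were near 0. Of 13 such genes, 9 were under 1 TPM in all 8 libraries and 4 of these, CTLA4, ICOS, TIGIT and CD96, were listed at 0 throughout. The other 4, named here after their values were seen, were CD27 at 4.2 to 6.87 TPM, PDCD1 at 1.77 to 4.42 in control and TCP and 0.515 to 1.25 with palbociclib or the combination, and LAG3 and TNFRSF4, which passed 1 TPM in some libraries. PDCD1, which encodes PD-1, was above CD274 in every control and TCP library. Of the 13 genes 3 were tested and 0 were called by limma. With the combination 1 of these 3 had an unadjusted p below 0.05, beside 59.2% of all genes. The T cell markers CD3E, CD3G and CD2 were also listed at 0 in all libraries, as was the B cell marker MS4A1. Of 8 T and NK cell markers 6 were under 1 TPM in all libraries, and their sum, nearly all of it NKG7, was 169 to 311 TPM. The sum of 5 B cell markers was 3.35 to 9.35 TPM, and 0 genes of either list were called by limma, with 2 of each at an unadjusted p below 0.05 with palbociclib, where the share over all genes was 53.3%. Among the 9 markers of the labelled cell type, PTPRC and CD33 were present in all libraries and CD34 was near 0. CSF2RA and KIT, named here after their values were seen, were also low, at 0.0340 to 0.284 and 0.528 to 1.48 TPM. Of all 9 markers 7 were tested and 1 was called against control, beside 9.1% of all genes with palbociclib and 13.7% with the combination. This gene, FLT3, fell by 1.52 with palbociclib and 1.71 with the combination. Its palbociclib call was kept on leaving out only 1 of the 4 libraries compared.

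The summed monocyte markers were higher with palbociclib and with the combination than in control, as were CD40 and CD274. CD86 was higher with the combination, but its log2 fold change was -0.53 with palbociclib, which was not called. With TCP alone a monocyte marker was called higher, while the log2 fold change of CD274 was -0.12. The summed TPM of the 8 markers was 375 and 851 in control, 839 and 1807 with TCP, 16666 and 19202 with palbociclib, and 27561 and 29596 with the combination. LYZ, which encodes lysozyme, made up most of each sum. The other 7 markers summed to 96.8 and 81.0 in control, 122 and 111 with TCP, 235 and 218 with palbociclib, and 970 and 979 with the combination. Of the 8 markers 1 rose with TCP, 5 with palbociclib and 7 with the combination. The shares of all genes called in either direction, for this list and the next, were 0.0565%, 9.1% and 13.7%. Of 8 dendritic cell markers 4 were tested, of which 1 rose and 1 fell with palbociclib and 2 rose and 1 fell with the combination. CLEC10A rose from 0.478 and 0.269 TPM in control to 16.9 and 18.0 with the combination, while CLEC9A and XCR1 were listed at 0. CLEC10A was under 1 TPM in control, so it passed the filter through treated groups. CD83 fell from 8.15 and 7.18 TPM in control to 3.02 and 3.21 with the combination (log2 fold change -1.07). That call was absent with quantile normalization (-0.97) and median ratio scaling (-0.88). CCR7, named here after its values were seen, fell with palbociclib (-1.23), from 2.16 and 1.31 TPM in control to 0.152 and 0.151. That call was lost on leaving out any of the 4 libraries compared. With TCP alone CCR7 had 7.39 and 5.58 TPM (log2 fold change 1.46), which was not called. The part of these markers in the results above was not tested.

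The study's methods describe MV4-11 cells grown on HS-5 stromal cells, and the labels do not mention them. The summed TPM of 12 stromal markers was 13.2 and 16.8 in control, 17.5 and 22.6 with TCP, 20.7 and 113 with palbociclib, and 29.5 and 38.3 with the combination. Of these markers 7 were tested and 0 were called by limma, with 2 at an unadjusted p below 0.05 with palbociclib, again beside 53.3% of all genes. Palbociclib replicate 2 stood apart, and it was also the library with the highest PDCD1LG2. Without palbociclib replicate 2, the log2 fold changes with palbociclib were 2.26 for CD40 and 0.93 for CD274. With all libraries they were 2.14 and 1.01, and without palbociclib replicate 1 they were 2.02 and 1.08. As given above, both calls were lost without either palbociclib replicate, so the loss was not particular to replicate 2. Each such fit has fewer libraries.

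**Figure D4:**
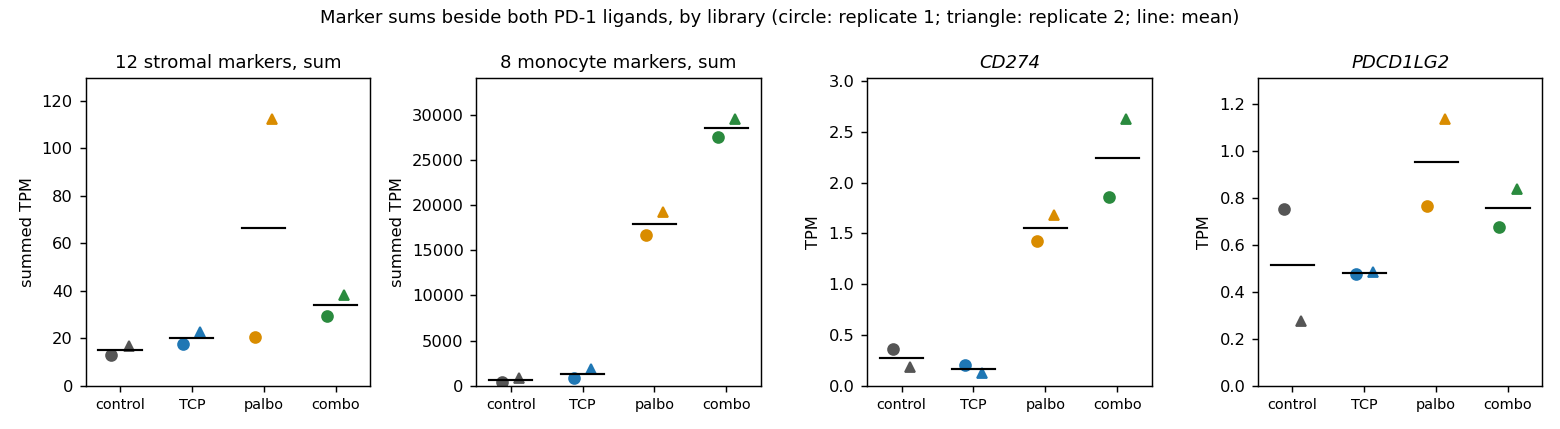
Summed TPM of 12 stromal and 8 monocyte markers beside the TPM of CD274 and PDCD1LG2 (vertical axes, from 0) in each library of the 4 groups. Points are libraries and lines are means. The stromal sum was 113 in palbociclib replicate 2 and at most 38.3 elsewhere, and the monocyte sum rose from at most 851 in control to at least 27561 in the combination, most of it LYZ.

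Among 11108 genes with a mean of at least 5 TPM, those whose log2(TPM + 1) followed each gene most closely over the 8 libraries were found by Pearson r. These values describe libraries that share the 4 treatments. For CD86 they were CLIP1 (0.990), SRD5A1 (0.979) and EVI2B (0.976). For CD40 they were GPR20 (0.993), PGAM2 (0.992) and SLFN12 (0.991), and for CD274 MMP25-AS1 (0.996), HPS1 (0.993) and TRPC4AP (0.993). The genes nearest to CD80, ICOSLG, LGALS9 and HAVCR2 were ARHGEF12 (0.945), ADPRH (0.968), OAZ2 (0.934) and GLCE (0.969).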

How the data were processed

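From stranded mRNA libraries the authors aligned reads to hg19 by subread-align, obtained gene counts by featureCounts (version 1.6.4 per the labels) and deposited TPM, transcripts of a gene per 1000000 transcripts. The annotation and strand setting are not given in the sources used here. No counts were used, so DESeq2, which the authors ran, was not repeated. Groups came from the sample labels. Genes that reached 1 TPM in 2 or more libraries (14151 of 26364) were tested with limma 3.58.1 in R 4.3.3 on log2(TPM + 1), with a mean-variance trend and 1 coefficient for each of the 4 groups (4 residual degrees of freedom). P-values were adjusted by Benjamini-Hochberg over all genes tested. A fold change with a pseudocount of 1 understates the change of low genes. The procedure was checked on simulated data.

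The fit above has no pairing, and a replicate block was an alternative. Same-numbered libraries deviated together from their group means in all 6 pairs of groups (correlation 0.169 to 0.491), so the numbers may pair the libraries. Intervals and p-values are nonetheless from the fit without pairing, unless a block is named. With the block CD86 in the combination against TCP had an adjusted p of 0.00999 by limma, and its log2 fold change of 0.97 stayed below the threshold. Such a pairing rests on the values, as the labels name no shared batch. With a replicate block the number of the 8 genes called was as without it, 3 for the combination against control and 2 for palbociclib.

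The 8 genes, the related families and the markers were chosen with earlier results of these data known. From each family, at most 3 genes called against control, with the largest change and a higher group whose mean reached 5 TPM, are named, and the genes most like each of the 8 are ranked by Pearson r. Coordinates are from the GENCODE annotation of GRCh37, and promoter windows from RefSeq (GRCh38.p14) were matched exactly to GRCh37. Alternatives were another pseudocount, no filter or a mean of at least 5 TPM, quantile or median ratio scaling, the replicate block, fits on the groups compared, no trend, an adjusted p below 0.05, and leaving out each library.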

Additional observations from a re-analysis of the deposited data

How the results depend on the processing

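The number of the 7 genes called was unchanged in every comparison with a pseudocount of 0.1, the replicate block, median ratio scaling, no trend or an adjusted p below 0.05. With the replicate block no call of the 8 genes changed, and CD86 with TCP alone had an adjusted p of 0.0432. For palbociclib against control 1 gene rather than 2 was called with a mean of at least 5 TPM, with quantile normalization (CD274 0.95, adjusted p 0.0131) and with the compared groups alone (CD274 adjusted p 0.0141), and 0 to 1 on leaving out a library. For the combination against TCP 1 was called with a mean of at least 5 TPM, where CD274 was not tested, and 0 to 3 on leaving out a library. For the combination against palbociclib 0 were called with no filter and 0 on leaving out any library compared. Leaving out a library also leaves fewer samples for each fit, and in a group of 2 the lone library is assumed to vary like the other groups.

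Directions turned only in log2 fold changes that were not called. ICOSLG in the combination against control was 0.17 with quantile normalization and 0.18 with median ratio scaling, and -0.27 to 0.18 on leaving out a library. LGALS9 there was 0.050 and 0.14 with these scalings. Leaving out a library gave -0.20 to 0.61 for HAVCR2 in the combination, -0.33 to 0.055 for CD80 with palbociclib, -0.067 to 0.91 for CD40 with TCP and -0.60 to 0.37 for the CD40 interaction. The cause was not tested. Over all genes, 71 were called between the combination and palbociclib. With no library of these groups left out, the number ranged from 38 (no filter, or compared groups alone) to 183 (adjusted p below 0.05). It was 114 with the replicate block and 42 at a pseudocount of 0.1. Leaving out any library of these groups gave far fewer calls than any of these settings, as described above for CD86. For TCP the 8 calls became 3 with either scaling, 20 with the block and 36 at an adjusted p below 0.05, and at most 1 on leaving out a library. For palbociclib 1288 became 787 without palbociclib replicate 2. CD86 and CD40 in the combination against control were called in all 13 alternatives and CD274 in 10 of 12. Library depth is unknown, so counting error at levels below 1 TPM, where CD80, CD274 and PDCD1LG2 lie in control, could not be given.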
